A study of Mus musculus with 10 samples.

Results

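The lysosomal genes described here are 55 genes that encode the enzymes inside the lysosome and the proteins of its membrane, chosen by symbol from a list of lysosomal proteins. All 55 were present among the 13837 genes with deposited values. They were measured in whole kidneys of 3-month-old mice, 5 Rragc+/+ and 5 heterozygous Rragc S74N/+ animals, with 1 library per mouse. The knock-in allele replaces a serine of RagC by asparagine and also carries silent base changes. It is a germline allele, so every cell of the kidney carried it next to a wild-type copy, and neither group received a treatment according to the labels. QuantSeq libraries start at the poly(A) tail, so reads fall near the 3′ end of a transcript and counts of different genes can be set side by side without a correction for length. In whole tissue, fewer cells of a type and less RNA per cell cannot be told apart.

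Lysosomes degrade protein, glycan, lipid and nucleic acid with acid hydrolases that are made in the secretory pathway, sorted largely by mannose 6-phosphate receptors and activated at low pH. Many of their genes carry an E-box in the promoter, the centre of the element bound by the transcription factors Tfeb, Tfe3 and Mitf. The Rag GTPases, of which RagC is a subunit, bring these factors to the lysosome, where mTORC1 phosphorylates them and thereby keeps them in the cytosol. In the kidney, the proximal tubule is especially rich in lysosomes because it takes up filtered protein by endocytosis.

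Reads on genes numbered 6501552 to 7856363 in Rragc+/+ libraries and 6872310 to 7996087 in Rragc S74N/+ libraries, with p = 0.595 for the difference in a two-sided exact permutation test. Values are normalized counts, which are reads divided by the size factor of the library, and errors are SD with n = 5 mice per genotype. Fold changes are log2 of Rragc S74N/+ over Rragc+/+ on the log2(normalized count + 1) scale, which understates the change of low genes. Rragc itself measured 285 ± 42.3 in Rragc+/+ and 216 ± 23.6 in Rragc S74N/+ kidneys (log2 fold change -0.40, limma, adjusted p = 0.0678). It passed in 2 of 13 other settings, DESeq2 (adjusted p = 0.0312) and scaling to reads outside the mitochondrial genome, and in 0 of 10 fits that left out 1 mouse. A count per gene does not tell the alleles apart, so it does not check the genotypes. Kidney markers were present, with 14 of 14 proximal tubule markers tested. The summed level of 5 markers of the thick ascending limb was 29387 to 38821 in Rragc+/+ mice and 12615 to 21685 in Rragc S74N/+ mice, and that of 4 markers of the distal convoluted tubule was 4154 to 4813 and 2424 to 3280. Umod is the largest part of the first sum. Of those 5 markers, Umod, Egf and Kcnj1 fell, Cldn16 rose (log2 fold change 0.82, limma, adjusted p = 0.0028) and Slc12a1 did not pass (-0.22, limma, adjusted p = 0.438), and of the 4, Slc12a3, Pvalb and Trpm6 fell and Calb1 did not pass (-0.09). The summed level of 5 markers of intercalated cells was 1294 to 1366 in Rragc+/+ and 1017 to 1233 in Rragc S74N/+ mice, with 2 markers lower (Atp6v0d2 and Slc4a1). Atp6v1g3, the largest part of that sum, did not pass (-0.23, limma, adjusted p = 0.251), nor did Foxi1 (-0.10) and Slc26a4 (0.25). The summed level of 6 markers of principal cells was 1768 to 2095 and 2172 to 3564, with 1 higher and all 6 fold changes above 0. The part of these segments in the levels of lysosomal genes was not tested. Replicate 5 of Rragc S74N/+ stood apart, with the lowest sum for the thick ascending limb (12615, against 20016 to 21685 in the other Rragc S74N/+ mice) and a summed level of 7 stromal markers of 2774, against 1118 to 1507 in all other mice. Without it, 9 of the 55 genes were lower, against 1.81% of all genes tested, and 1 higher, Aga being the gene that no longer passed. Replicate 1 of Rragc S74N/+ was high in 2 neutrophil markers, with a sum of 290.2 against 22.4 to 91.6 in all other mice. Without it, 8 of the 55 genes were lower, against 1.67% of all genes tested, and 0 higher, with Ctsl, Lipa, Aga and Napsa lost and Lgmn gained. No marker of the endothelium or of dendritic cells passed the test, with sums of 3044 to 3228 and 2426 to 3788 in Rragc+/+ and 2389.8 to 3230.4 and 2392 to 4248 in Rragc S74N/+ mice. Of 5 podocyte markers, Synpo rose (log2 fold change 0.52, limma, adjusted p = 0.0261) and 4 did not pass. Library codes formed a pair of runs of numbers, 38 to 40 with 2 Rragc+/+ mice and 1 Rragc S74N/+ mouse, and 53 to 66 with 3 and 4, and values within the larger run are given at the end.

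The E-box core was looked for in promoters of 300 bases, from 250 before to 50 after the transcription start, taken from RefSeq on GRCm38.p6, whereas the expression values were counted on GRCm39. A promoter was found for 48 of the 55 genes, and was missing for Ctsb, Ctsh, Napsa, Galns, Aga, Asah1 and Npc1. The letters CACGTG, which read the same on both strands, were present in 14 of the 48 genes (29.2%), against 11.8% of the genes tested for expression that had a promoter and 8.09% of all genes with a promoter. The longer TCACGTG, on either strand and overlapping the core, was present in 12 of them (25.0%), against 7.17% and 4.29%. The palindrome TCACGTGA was present in 5 (10.4%), against 2.19% and 1.12%. These 5 were Cln3, Ctsa, Ctsd, Gla and Mcoln1. The promoters below are those of Ctsa and Cln3, which fell in Rragc S74N/+ kidneys and hold the palindrome, of Ctsl, which fell and holds the core alone, and of Lamp1, which holds 4 copies and did not pass the test. Each is printed 5′ to 3′ on the strand of the gene, with the core and the flanking T or A of the longer forms in capitals.
Ctsa (chr2:164833523-164833822, plus strand): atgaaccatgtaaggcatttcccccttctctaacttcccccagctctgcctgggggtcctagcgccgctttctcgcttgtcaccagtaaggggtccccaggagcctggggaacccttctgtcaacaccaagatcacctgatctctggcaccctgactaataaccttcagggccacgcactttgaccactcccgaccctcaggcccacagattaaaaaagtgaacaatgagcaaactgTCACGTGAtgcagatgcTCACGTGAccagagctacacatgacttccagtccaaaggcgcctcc
Cln3 (chr7:126583187-126583486, minus strand): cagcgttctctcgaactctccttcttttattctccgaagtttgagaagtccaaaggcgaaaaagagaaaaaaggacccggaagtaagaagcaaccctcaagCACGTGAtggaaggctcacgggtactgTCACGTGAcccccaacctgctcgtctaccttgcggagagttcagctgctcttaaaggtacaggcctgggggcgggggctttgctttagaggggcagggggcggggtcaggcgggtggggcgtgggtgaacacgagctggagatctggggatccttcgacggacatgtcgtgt
Ctsl (chr13:64370471-64370770, minus strand): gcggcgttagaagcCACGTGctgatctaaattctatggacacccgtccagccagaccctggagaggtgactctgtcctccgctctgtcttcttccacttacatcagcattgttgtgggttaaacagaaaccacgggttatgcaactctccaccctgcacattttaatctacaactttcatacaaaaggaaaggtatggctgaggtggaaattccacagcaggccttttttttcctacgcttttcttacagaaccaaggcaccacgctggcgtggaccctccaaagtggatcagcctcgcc
Lamp1 (chr8:13158911-13159210, plus strand): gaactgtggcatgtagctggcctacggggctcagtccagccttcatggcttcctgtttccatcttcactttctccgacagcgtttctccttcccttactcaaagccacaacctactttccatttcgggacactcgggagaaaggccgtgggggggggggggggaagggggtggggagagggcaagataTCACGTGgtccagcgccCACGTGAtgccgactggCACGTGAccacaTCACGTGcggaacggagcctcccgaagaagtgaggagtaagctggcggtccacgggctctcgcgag
Ctsa and Cln3 each have a further promoter without the core, which is not shown. Counted as the distance of the first base of the core from the start, in Ctsa the palindromes lay at -12 and 5, in Cln3 a 7-base form lay at -149 and the palindrome at -121, in Ctsl the core lay at -236, and in Lamp1 the 4 copies lay at -61, -45, -28 and -15. A match is a description of letters and not a binding site.

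**Figure D1:**
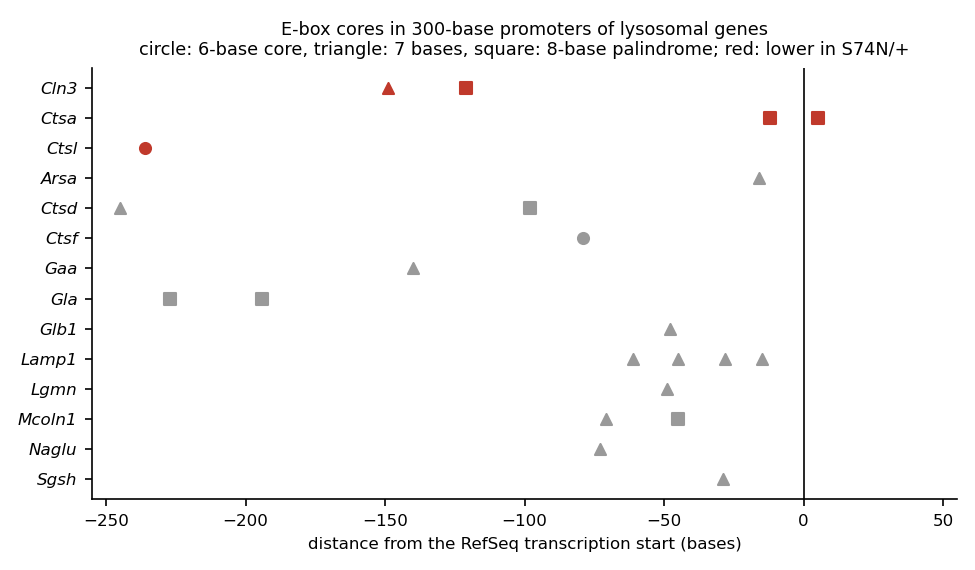
Positions of the E-box core in the 300-base promoters of the 14 lysosomal genes that hold it, with distance from the RefSeq transcription start in bases on the x axis and genes on the y axis. Symbols give the 6-base core, the 7-base form and the 8-base palindrome. The 3 genes in red (Cln3, Ctsa and Ctsl) were lower in Rragc S74N/+ kidneys at an adjusted p under 0.05, and the 11 in grey did not pass that test.

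Of the 9 genes that were lower in Rragc S74N/+ kidneys and had a promoter, 3 held the core and 2 the palindrome, and of the 39 with a promoter that did not pass the test, 11 held the core and 3 the palindrome.

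In Rragc S74N/+ kidneys, 10 of the 55 lysosomal genes were lower than in Rragc+/+ kidneys and 1 was higher, all 55 having entered the test (limma, adjusted p under 0.05 over 13197 genes). The 10 were the proteases Ctsz, Ctsl, Tpp1 and Ctsa, the glycan-degrading enzymes Hexa, Neu1 and Aga, the lipase Lipa, the glycoprotein gene Creg1 and the membrane protein gene Cln3. The aspartic protease gene Napsa was the gene that rose. The lower genes make up 18.2% of the list, against 2.02% of all genes tested that were lower, and the higher gene 1.82%, against 1.67%. In the 10 lower genes the Rragc S74N/+ mean was between 55.5% and 80.1% of the Rragc+/+ mean, with log2 fold changes from -0.86 to -0.32.

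Fold changes below 0 were not limited to the genes that passed. The fold change was below 0 in 42 of the 55 genes (76.4%) and in 49.9% of all genes tested. Its median over the list was -0.17, against 0.00046 over all genes. An unadjusted p under 0.05 was found for 22 of the 55 and for 2031 of all genes (15.4%). In 10 genes, every Rragc S74N/+ mouse lay below every Rragc+/+ mouse (18.2%, against 2.71% of all genes), and these were 8 of the genes that fell, all but Ctsl and Lipa, together with Idua and Psap. None of the 55 genes had every Rragc S74N/+ mouse above every Rragc+/+ mouse, a pattern that 2.29% of all genes showed. Genes that fell had a median level of 607, and the 44 that did not pass a median of 260.

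**Figure D2:**
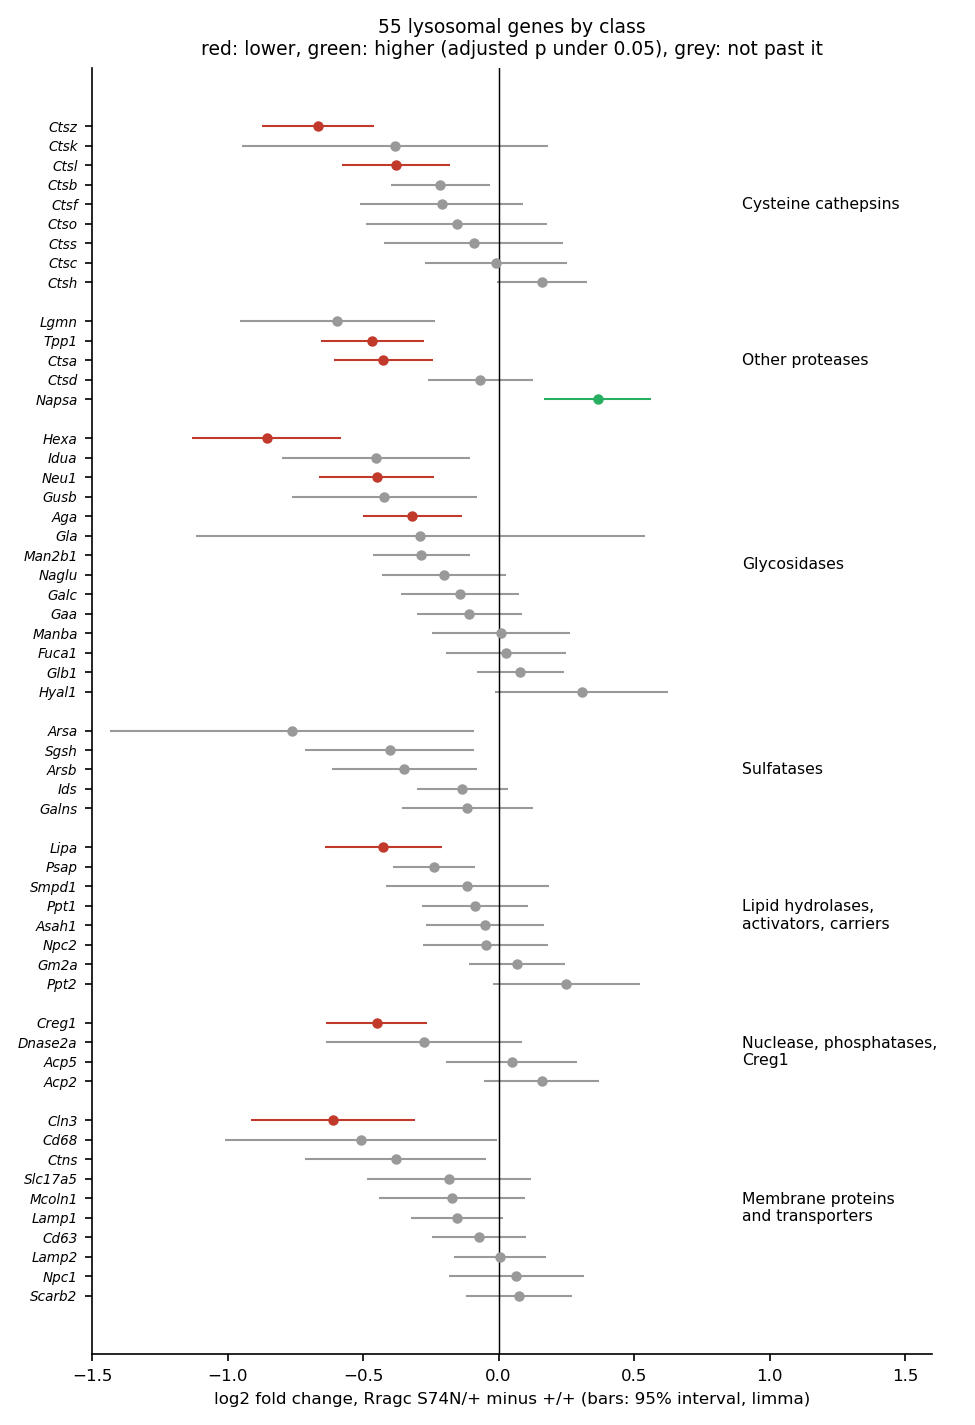
Log2 fold change of each of the 55 lysosomal genes (x axis), Rragc S74N/+ minus Rragc+/+, sorted within 7 classes on the y axis, with 95% intervals from limma over 5 mice per genotype. Red genes were lower and the green gene higher at an adjusted p under 0.05. Most points, 42 of 55, lie to the left of 0, and the sulfatases lie there in full.

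The cysteine cathepsins, the papain-like proteases of the lysosome, are represented by 9 genes. Of these, 2 fell (22.2%, against 2.02% of all genes), 0 rose and 8 had a fold change below 0 (median -0.21), against 49.9% of all genes. Ctsz encodes a carboxypeptidase that trims single residues from the end of proteins. It measured 391, 408, 371, 338 and 345 normalized counts in the 5 Rragc+/+ mice and 218, 215, 219, 241 and 274 in the 5 Rragc S74N/+ mice. The groups stood well apart, and the highest Rragc S74N/+ mouse was replicate 5. Ctsz fell by 0.67 on the log2 scale (standard error 0.10, limma, adjusted p = 0.000487), the smallest adjusted p among the 55 genes.

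Ctsl, an endopeptidase that also cuts other cathepsins to their active forms, measured 1509.8, 1436, 1148, 1375 and 1405 in Rragc+/+ mice and 1076, 1218, 894, 1045 and 1057 in Rragc S74N/+ mice. Only replicate 3 of Rragc+/+ reached down into the range of the other genotype, where it lay below replicate 2. Ctsl fell by 0.38 on the log2 scale (standard error 0.09, limma, adjusted p = 0.0314), a call that was lost in 7 of the 10 fits that left out 1 mouse, without the trend and within library codes 53 to 66. Ctsb, which has both endopeptidase and carboxypeptidase activity, had a mean of 2052 ± 228 in Rragc+/+ and 1761 ± 123 in Rragc S74N/+ kidneys, and did not pass (log2 fold change -0.22, limma, adjusted p = 0.222). The aminopeptidase gene Ctsh had the highest mean of the 9 genes over all mice. It measured 2044 ± 138 in Rragc+/+ and 2286 ± 184 in Rragc S74N/+ kidneys, with 3 of 5 Rragc S74N/+ mice above all Rragc+/+ mice (log2 fold change 0.16, 95% interval -0.01 to 0.33, limma, adjusted p = 0.357).

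Among the low cathepsin genes, Ctss, which antigen-presenting cells use to process the invariant chain, was more spread in Rragc S74N/+ kidneys. It measured 142, 150.3, 136, 158 and 141 in Rragc+/+ mice and 103, 112, 119.8, 192 and 175 in Rragc S74N/+ mice. Replicates 1 to 3 of Rragc S74N/+ lay below every Rragc+/+ mouse and replicates 4 and 5 above them, so that the means, 145 and 141, were close (limma, adjusted p = 0.846). The remaining cathepsin genes Ctsc, Ctsf, Ctsk and Ctso had log2 fold changes from -0.38 to -0.01 and none passed. Ctsk, known from bone resorption, was near the floor of the data at 14.3 ± 3.57 and 10.5 ± 1.35.

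The other proteases were 5 genes of different catalytic types, of which 2 fell and 1 rose, against 2.02% and 1.67% of all genes. Tpp1 encodes the serine tripeptidyl peptidase that is lost in late infantile neuronal ceroid lipofuscinosis. It measured 811, 963, 806, 996 and 1009 in Rragc+/+ mice and 669, 706, 584, 670.1 and 680.2 in Rragc S74N/+ mice. The groups did not overlap, and the Rragc S74N/+ mice were the more uniform, with SD 45.9 against 100.5. Tpp1 fell by 0.47 on the log2 scale (standard error 0.09, limma, adjusted p = 0.00526).

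Ctsa encodes the serine carboxypeptidase also called protective protein, which holds the sialidase Neu1 and the β-galactosidase Glb1 in a stable complex. Its values were 922, 867, 804, 773 and 758 in Rragc+/+ mice and 682, 638, 601, 539.7 and 610.1 in Rragc S74N/+ mice. All Rragc S74N/+ mice lay below all Rragc+/+ mice. Ctsa fell by 0.42 on the log2 scale (standard error 0.09, limma, adjusted p = 0.00817), and its promoter, printed above, holds 2 palindromes next to the start.

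Lgmn, the asparaginyl endopeptidase legumain, is abundant in proximal tubule lysosomes. It measured 478, 480.2, 389, 512 and 495 in Rragc+/+ mice and 432, 434, 199, 285 and 271 in Rragc S74N/+ mice. Replicates 1 and 2 of Rragc S74N/+ stood near the Rragc+/+ mice, and replicates 3 to 5 far below them. The fold change of -0.60 was larger in size than that of 7 of the 10 genes that fell, but its standard error was 0.17 and it did not pass (limma, adjusted p = 0.064). Ctsd, the main aspartic protease of lysosomes, did not move detectably at 3196 ± 203 and 3067 ± 415 (log2 fold change -0.07, 95% interval -0.26 to 0.13).

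Napsa encodes napsin A, an aspartic protease of the proximal tubule and of lung alveolar cells, and had the highest level of the 55 genes. It measured 9961, 10490.5, 9057, 8908 and 10086 in Rragc+/+ mice and 13579, 13807, 11673, 13283 and 10399 in Rragc S74N/+ mice. All Rragc S74N/+ values but that of replicate 5 lay above every Rragc+/+ mouse. Napsa rose by 0.37 on the log2 scale (standard error 0.09, limma, adjusted p = 0.0362). Among the 14 markers of the proximal tubule, where Napsa is made, 3 also rose and 2 fell in the same test. Slc22a6, Slc13a3 and Pck1 had log2 fold changes of 0.52, 0.55 and 1.30, and Slc5a2 and Slc5a12 of -0.93 and -0.95. Napsa missed the threshold in 7 of the 10 fits that left out 1 mouse and with scaling to reads outside the mitochondrial genome. The summed level of all 14 markers was 311362 to 399381 in Rragc+/+ and 372529 to 469431 in Rragc S74N/+ mice, ranges that overlap, and its part in the level of Napsa was not tested.

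**Figure D3:**
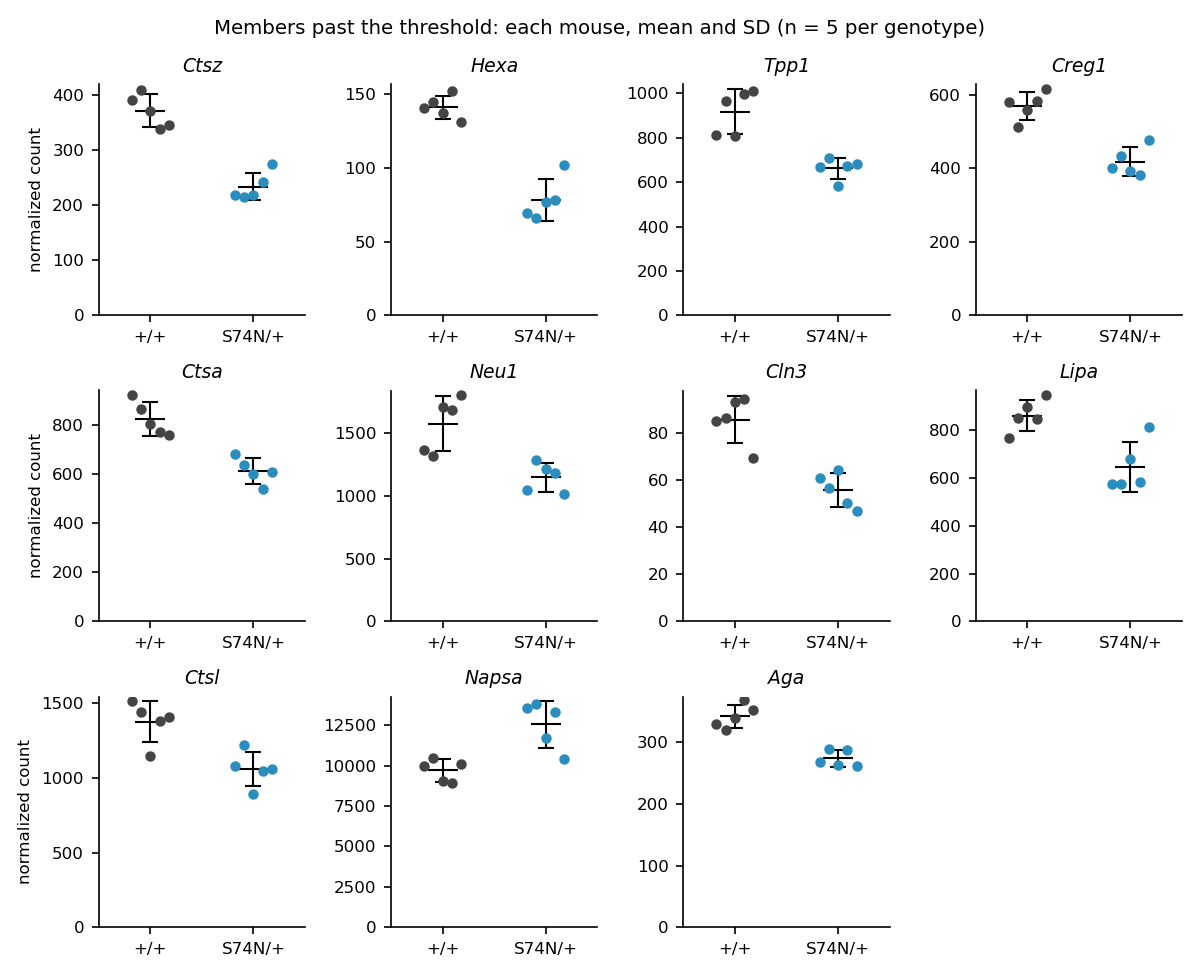
Normalized counts (y axes, each starting at 0) of the 11 lysosomal genes that passed the test, with 1 point per mouse, the mean as a wide bar and the SD as whiskers (n = 5 per genotype). The genotypes do not overlap except in Lipa, Ctsl and Napsa, and Napsa is the gene that is higher in Rragc S74N/+ mice.

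Glycan-degrading enzymes were the largest class with 14 genes. Of these, 3 fell (21.4%, against 2.02% of all genes), 0 rose and 10 had a fold change below 0 (median -0.24), against 49.9% of all genes. Hexa encodes the α subunit of β-hexosaminidase A, the enzyme of ganglioside breakdown that is missing in Tay-Sachs disease. It measured 141, 145, 137, 152 and 131 in Rragc+/+ mice and 69.2, 66, 76.7, 78.1 and 102 in Rragc S74N/+ mice. All Rragc S74N/+ mice were well below the lowest Rragc+/+ mouse, and replicate 5 was again the highest of them. Its fall of 0.86 on the log2 scale (standard error 0.13, limma, adjusted p = 0.00066) was the largest among the genes that passed.

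Gm2a, the activator protein that presents ganglioside to the Hexa enzyme, measured 1449.7 ± 119 and 1520.0 ± 138 (log2 fold change 0.07, 95% interval -0.11 to 0.25).

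Neu1 encodes the lysosomal sialidase, which removes terminal sialic acid from glycoproteins. It measured 1370.2, 1315, 1707, 1684 and 1801 in Rragc+/+ mice and 1044, 1283, 1217, 1181 and 1015 in Rragc S74N/+ mice. The groups did not overlap, but the highest Rragc S74N/+ mouse came close to the lowest Rragc+/+ mouse. Neu1 fell by 0.45 on the log2 scale (standard error 0.10, limma, adjusted p = 0.0156). The call of Neu1 was lost without the trend and without replicate 4 or 5 of Rragc+/+. Glb1, the third protein of its complex with Ctsa, measured 841 ± 42.0 in Rragc+/+ and 889 ± 47.9 in Rragc S74N/+ kidneys (log2 fold change 0.08, 95% interval -0.08 to 0.24). The ratio of Neu1 to Glb1 counts was 1.5 to 2.13 in Rragc+/+ and 1.10 to 1.53 in Rragc S74N/+ mice, and that of Ctsa to Glb1 counts was 0.894 to 1.04 and 0.605 to 0.762. These ratios were chosen after the values were seen and were not tested.

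Aga encodes aspartylglucosaminidase, which cuts the bond between a glycan and its asparagine. It measured 329.5, 319, 339, 369 and 352 in Rragc+/+ mice and 268, 289, 263, 288 and 262 in Rragc S74N/+ mice. The groups were apart and narrow, with SD 19.4 and 13.4. Aga had the smallest change of the genes that fell, by 0.32 on the log2 scale (standard error 0.09, limma, adjusted p = 0.0482), and it missed the threshold in each of the 10 fits that left out 1 mouse.

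Man2b1, the α-mannosidase of N-glycan breakdown, measured 612, 536, 612, 690.3 and 632 in Rragc+/+ mice and 506, 547, 494, 491 and 484 in Rragc S74N/+ mice. Only the highest Rragc S74N/+ mouse exceeded the lowest Rragc+/+ mouse. Man2b1 did not pass in the main test (log2 fold change -0.29, limma, adjusted p = 0.0758), while it did with DESeq2 (adjusted p = 0.0286). Idua, the iduronidase of heparan and dermatan sulfate breakdown, measured 51.1, 46.2, 62.4, 49.3 and 49.1 in Rragc+/+ mice and 39.8, 32.5, 45.2, 39.5 and 31.1 in Rragc S74N/+ mice. These values did not overlap, yet at this low level the standard error was 0.16 and Idua did not pass (log2 fold change -0.45, limma, adjusted p = 0.168).

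Fuca1, the α-fucosidase, was the most abundant gene of the class and had nearly the same mean in both genotypes. It measured 1973, 1670.2, 2028, 2032 and 2095 in Rragc+/+ mice and 1895, 1718, 2644, 1863 and 1941 in Rragc S74N/+ mice. A mouse in each group stood apart, replicate 2 of Rragc+/+ as the lowest and replicate 3 of Rragc S74N/+ as the highest. The log2 fold change was 0.03 (95% interval -0.20 to 0.25). Of the other members of the class, Gusb, Naglu, Galc, Gaa and Gla had fold changes from -0.42 to -0.11, Manba was at 0.01, and Hyal1, a hyaluronidase, was at 0.31 (95% interval -0.01 to 0.62, limma, adjusted p = 0.352). Gla, the α-galactosidase whose loss causes Fabry disease, was too low at 15.2 ± 6.30 and 13.2 ± 7.44 to be read, with a 95% interval from -1.12 to 0.54.

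Sulfatases remove sulfate from glycosaminoglycans and sulfatides. All 5 had a fold change below 0, with a median of -0.35, against 49.9% of all genes tested below 0. The test was passed by 0 of them with limma, edgeR or DESeq2. An unadjusted p under 0.05 in limma was found for 3, against 15.4% of all genes. Their summed level was 1403 ± 46.0 in Rragc+/+ and 1241 ± 103 in Rragc S74N/+ kidneys, with replicate 3 of Rragc S74N/+ (1395) within the Rragc+/+ range of 1359 to 1475 and the other 4 mice below it. Arsb measured 245, 236, 175, 188 and 188 in Rragc+/+ mice and 187, 184, 149, 150.2 and 137 in Rragc S74N/+ mice. The 2 highest Rragc S74N/+ mice lay above the lowest Rragc+/+ mouse and below the other 4 (log2 fold change -0.35, limma, adjusted p = 0.167). Sgsh, the heparan N-sulfatase, measured 84.0, 86.3, 119, 95.4 and 99.3 in Rragc+/+ mice and 68.3, 56.7, 76.7, 91.9 and 73.0 in Rragc S74N/+ mice. Only replicate 4 of Rragc S74N/+ reached the Rragc+/+ values (log2 fold change -0.40, limma, adjusted p = 0.175). Ids, the iduronate sulfatase and the most abundant of the class, measured 560.4 ± 31.0 and 510.2 ± 23.9 (log2 fold change -0.13, limma, adjusted p = 0.468). Arsa, which acts on sulfatide, had a mean of 17.2 ± 6.35 and 9.17 ± 1.96, few reads per mouse, and a wide 95% interval of -1.43 to -0.09 (limma, adjusted p = 0.245).

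The lipid-degrading enzymes, their activators and a cholesterol carrier were 8 genes. Of these, 1 fell (12.5%, against 2.02% of all genes), 0 rose and 6 had a fold change below 0 (median -0.07), against 49.9% of all genes. Lipa encodes the acid lipase that frees cholesterol and fatty acids from lipoprotein lipids. It measured 766, 848, 896, 845 and 944 in Rragc+/+ mice and 575, 573, 678, 583 and 812 in Rragc S74N/+ mice. Replicate 5 of Rragc S74N/+ lay within the Rragc+/+ range and the other 4 below it. Lipa fell by 0.43 on the log2 scale (standard error 0.10, limma, adjusted p = 0.0248), and this call was lost in 6 of the 10 fits that left out 1 mouse, without the trend and within library codes 53 to 66.

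Psap, the precursor of the saposins that lift sphingolipids to their hydrolases, was by far the most abundant of the class. It measured 9574, 8798, 9144, 8823 and 9461 in Rragc+/+ mice and 7712, 7844, 8159, 7550.3 and 7554 in Rragc S74N/+ mice. The groups did not overlap, with a Rragc S74N/+ mean at 84.8% of that of Rragc+/+. Its fold change of -0.24 (standard error 0.07) did not pass in the main test (limma, adjusted p = 0.0834), while it did with DESeq2 on the recovered reads (adjusted p = 0.0014). The other 6, Smpd1, Ppt1, Asah1, Npc2, Gm2a and Ppt2, had fold changes from -0.12 to 0.25 and none passed. The highest was Ppt2, a thioesterase, at 232 ± 37.3 and 276 ± 42.9 (95% interval -0.02 to 0.52).

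A nuclease, a pair of acid phosphatases and Creg1 made up a class of 4 genes, of which 1 fell, against 2.02% of all genes. Creg1, a secreted and lysosomal glycoprotein, was the most abundant of them. It measured 581, 513, 558, 583 and 616 in Rragc+/+ mice and 401, 435, 393, 383 and 478 in Rragc S74N/+ mice. The groups did not overlap. Creg1 fell by 0.45 on the log2 scale (standard error 0.09, limma, adjusted p = 0.00587). Dnase2a, the acid DNase, had a fold change of -0.28 (95% interval -0.64 to 0.09). The acid phosphatase genes Acp2 and Acp5 had fold changes of 0.16 and 0.05, and in Acp2 4 of 5 Rragc S74N/+ mice lay above every Rragc+/+ mouse (298 ± 13.0 and 335 ± 43.0, limma, adjusted p = 0.507).

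Membrane proteins and transporters were 10 genes, of which 1 fell, against 2.02% of all genes, and 0 rose. A fold change below 0 was found for 7 (median -0.16), against 49.9% of all genes. Cln3 encodes a membrane protein whose loss causes juvenile neuronal ceroid lipofuscinosis. It measured 84.9, 86.3, 93.0, 94.3 and 69.4 in Rragc+/+ mice and 60.7, 56.7, 64.1, 50.4 and 46.7 in Rragc S74N/+ mice. The groups did not overlap, although replicate 5 of Rragc+/+ stood close to the other genotype. Cln3 fell by 0.61 on the log2 scale (standard error 0.14, limma, adjusted p = 0.021), and its promoter is 1 of the 5 with the palindrome.

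The abundant membrane proteins of the lysosome, whose glycans line its inner face, did not pass the test. Cd63, a tetraspanin and the most abundant gene of the class, measured 6785 ± 421 in Rragc+/+ and 6464 ± 583 in Rragc S74N/+ kidneys (log2 fold change -0.07, 95% interval -0.25 to 0.10). Lamp1 measured 5919, 5618, 6489, 5696 and 5994 in Rragc+/+ mice and 5343, 4865, 6023, 4930.1 and 5602 in Rragc S74N/+ mice. The highest Rragc S74N/+ mouse reached the upper Rragc+/+ values, and the other 4 lay below every Rragc+/+ mouse (log2 fold change -0.15, 95% interval -0.32 to 0.02, limma, adjusted p = 0.395). Lamp2 measured 3405 ± 310.5 and 3413 ± 212, a log2 fold change of 0.01 with a 95% interval of -0.16 to 0.18. Scarb2, the receptor that carries glucocerebrosidase to the lysosome, and the cholesterol transporter gene Npc1 had fold changes of 0.08 and 0.06.

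Of the exporters and channels, the cystine exporter gene Ctns, the sialic acid exporter gene Slc17a5 and the cation channel gene Mcoln1 had fold changes of -0.38, -0.18 and -0.17, and none passed. Cd68, a membrane protein of macrophage lysosomes, measured 30.8 ± 5.31 in Rragc+/+ and 22.1 ± 8.10 in Rragc S74N/+ kidneys, and did not pass (log2 fold change -0.51, limma, adjusted p = 0.318). Macrophages are rich in lysosomes, so their markers were set beside these values. Of 12 markers, 10 were tested, 1 fell (Ms4a7), 0 rose and 7 had a fold change above 0. Their summed level was 1489 to 1993 in Rragc+/+ and 1637 to 2195 in Rragc S74N/+ mice. Csf1r, the receptor that defines the lineage and the largest part of this sum, measured 955 ± 123 and 990.1 ± 167. The part of macrophages in the levels of lysosomal genes was not tested.

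**Figure D4:**
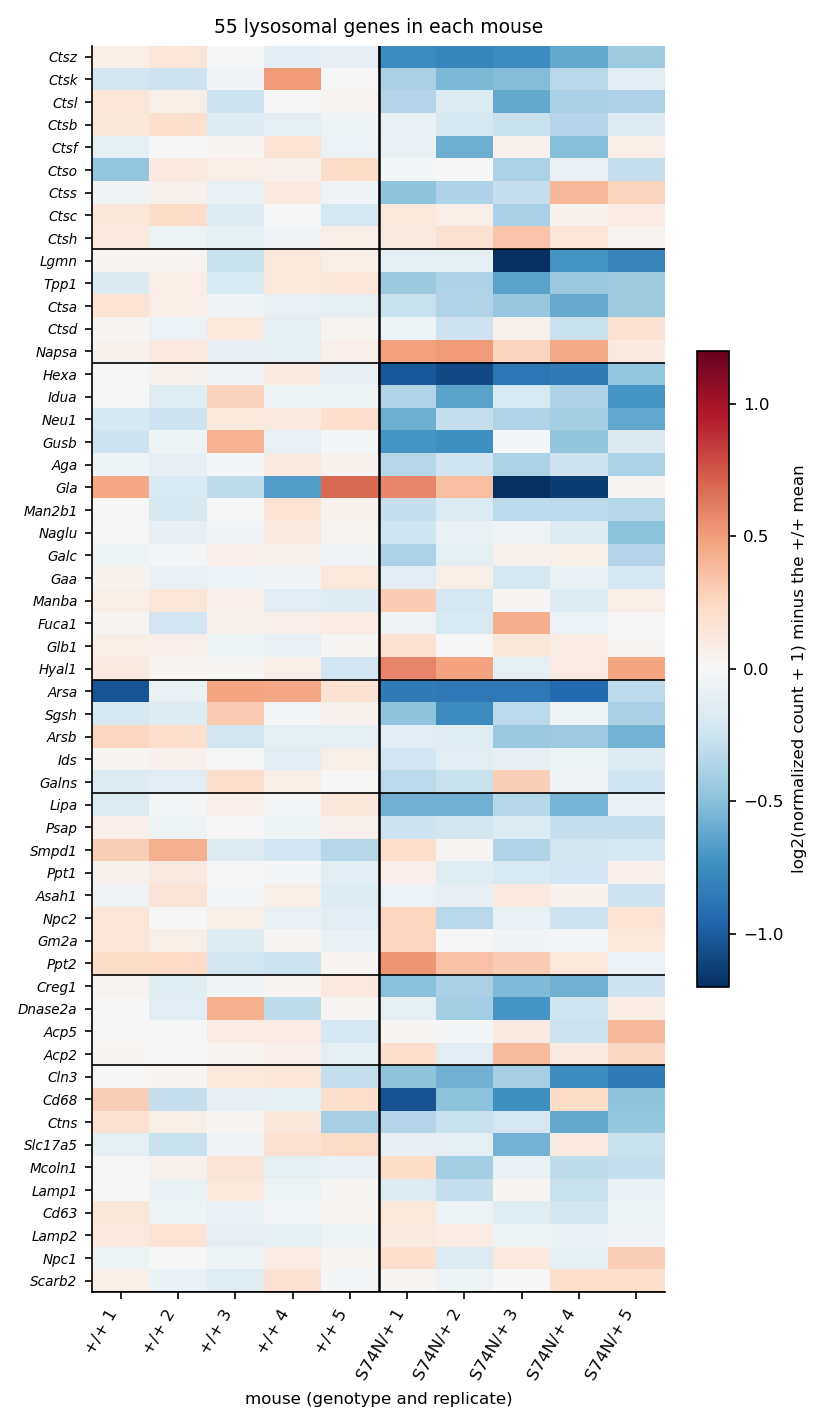
Level of the 55 lysosomal genes (rows, grouped by class) in each of the 10 mice (columns), as log2(normalized count + 1) minus the Rragc+/+ mean of the gene, from blue (lower) to red (higher), with values beyond the ends of the scale drawn in the end colour. Columns of Rragc S74N/+ mice are mostly blue, and the row of Napsa is red in them.

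In every Rragc S74N/+ mouse, the median gene of the list was below its Rragc+/+ mean. The median difference of the 55 genes from their Rragc+/+ means was -0.12, -0.19, -0.19, -0.24 and -0.17 in the 5 Rragc S74N/+ mice, on the log2 scale. In the Rragc+/+ mice, which make up that mean, it was between -0.0097 and 0.018. The 55 genes together took 0.860% ± 0.0306 of normalized counts in Rragc+/+ and 0.835% ± 0.0219 in Rragc S74N/+ kidneys, ranges that overlap, and within library codes 53 to 66 the difference was -0.0027 percentage points. Napsa went from 0.136% ± 0.0114 to 0.176% ± 0.0218 of normalized counts. Without Napsa, which was set aside after its rise had been seen, the other 54 genes took 0.724% ± 0.0211 and 0.659% ± 0.0173, with 0.695% to 0.751% in Rragc+/+ and 0.639% to 0.674% in Rragc S74N/+ mice, ranges that do not overlap, as a description of a sum without its only gene that rose. Transcripts of the mitochondrial genome took 27.7% ± 2.41 and 25.2% ± 1.25 of the same totals. The 55 genes were also set against counts outside that genome, a choice made after seeing the data. Of these they took 1.17% to 1.23% in Rragc+/+ and 1.10% to 1.15% in Rragc S74N/+ mice, ranges that do not overlap.

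Summed by class, the lipid class was the clearest, at 13703 ± 457 in Rragc+/+ and 12109 ± 406 in Rragc S74N/+ kidneys without overlap, a sum that is mostly Psap. The glycan class summed to 6667 ± 414 and 6001 ± 429, and the cysteine cathepsins to 6374 ± 450 and 5839 ± 108, both with overlap. The membrane class was at 17059 ± 561 and 16101 ± 883, also with overlap. The class of other proteases went the opposite way, at 15110 ± 728 and 17216 ± 1227, and Napsa is the larger part of that sum. Its ranges overlapped, at 14155 to 15836 in Rragc+/+ and 15580 to 18436 in Rragc S74N/+ mice.

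Of 39 further lysosomal genes outside the list that were tested, 1 fell and 1 rose (2.56% in each direction, near the 2.02% and 1.67% of all genes). A fold change below 0 was found for 23 of them (median -0.04), against 49.9% of all genes. The gene that fell, Dpp7, encodes a dipeptidyl peptidase and measured 504, 640.3, 567, 501 and 566 in Rragc+/+ mice and 278, 199.8, 299.5, 212 and 309 in Rragc S74N/+ mice. No values overlapped, and its log2 fold change of -1.11 (limma, adjusted p = 2.71e-05) was larger in size than that of any of the 55. Epdr1, which encodes a lysosomal lipid-binding protein, rose by 0.86 on the log2 scale (limma, adjusted p = 0.013) from 47.6 ± 12.3 to 86.1 ± 16.7.

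The sorting and activation machinery of these enzymes was covered by 18 genes, of which 0 passed the test in either direction with limma or edgeR. With DESeq2, 1 of the 18 fell, against 2.51% of all genes tested. An unadjusted p under 0.05 in limma was found for 5, against 15.4% of all genes. A fold change below 0 was found for 12 (median -0.07), against 49.9% of all genes. Igf2r, the larger mannose 6-phosphate receptor, measured 161, 162, 220.0, 228 and 238 in Rragc+/+ mice and 157, 156, 123, 155 and 133 in Rragc S74N/+ mice, close to the threshold (log2 fold change -0.46, limma, adjusted p = 0.0666). The smaller receptor gene M6pr was at 399 ± 54.7 and 396 ± 105. Of 16 genes of the Tfeb, Tfe3 and Mitf system and of its Rag feedback, 5 fell and 0 rose, so that 31.2% of the list was lower, against 2.02% of all genes tested. Ppargc1a, Rragd, Gabarapl1, Flcn and Fnip1 had log2 fold changes of -0.85, -0.82, -0.65, -0.61 and -0.44, all without overlap between genotypes (a pattern of 2.71% of all genes), and 3 genes of the list fell without replicate 3, 4 or 5 of Rragc+/+ or replicate 2 of Rragc S74N/+. Ppargc1a, Rragd and Gabarapl1 passed in each of the 10 fits that left out 1 mouse. Flcn passed in 4 of them and not within library codes 53 to 66. Fnip1 passed in 3 of them and not without the trend. Transcripts of the factors themselves did not pass, with log2 fold changes of -0.07 for Tfeb, 0.21 for Tfe3 and -0.34 for Mitf (limma, adjusted p = 0.896, 0.595 and 0.114).

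Ctsa, Ctsz, Tpp1, Hexa and Creg1, 5 of the 11 genes, passed the test in each of the 10 fits that left out 1 mouse. Neu1 passed in 8, Cln3 in 7, Lipa in 4, Ctsl and Napsa in 3 each, and Aga in 0, always with the same sign. Among the 55 genes, 5 to 9 were lower in these fits, with 5 without replicate 4 of Rragc+/+, 6 without its replicate 5 and 6 without replicate 4 of Rragc S74N/+. The share of all genes tested that were lower in these fits was 1.32% to 2.02%. Within the 7 mice of library codes 53 to 66, 6 genes were lower, against 1.35% of all genes tested there, and 0 higher. The 6 were Ctsa, Ctsz, Tpp1, Hexa, Neu1 and Creg1, while Ctsl, Lipa, Cln3, Aga and Napsa kept their sign and did not pass. With the run of codes as a covariate, all 11 passed and Psap and Man2b1 joined them, while the share of all genes that were lower rose to 3.02%.

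**Figure D5:**
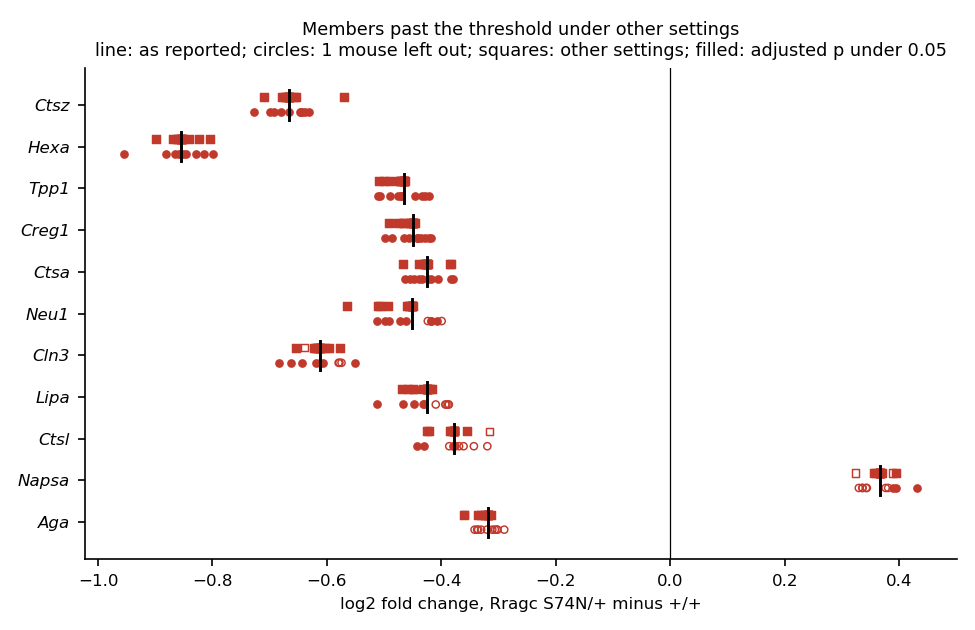
Log2 fold change (x axis) of the 11 lysosomal genes that passed the test (y axis), as reported (black line), with 1 mouse left out (circles) and under the other settings (squares), filled where the adjusted p was under 0.05. All points keep the sign of the reported value, and Ctsz, Hexa, Tpp1, Creg1 and Ctsa are filled throughout.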

How the data were processed

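Kidney libraries of 10 mice were prepared by the authors with the QuantSeq 3′ kit, and genotypes were taken from the sample labels. Per the labels and the methods of the study, reads were checked with FastQC 0.11.7, aligned to GRCm39 with TopHat2 2.0.10, Bowtie 1.0.0 and SAMtools 0.1.19 with multiple hits allowed, and counted by strand with HTSeq 0.6.1 on a GENCODE annotation, so that genes with near-identical copies are uncertain. The deposited values are a signal, in which the authors divided each read count by the size factor of its library, and 0 of the value columns were left unmatched. Undoing that division gave whole reads for 100% of the values, to within 0.01 reads. The lowest gene mean was 5.635, so rarer genes were not analysed here.

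Log2(value + 1) was tested with limma 3.58.1 (R 4.3.3, trend, two-sided) over the 13197 genes that reached a value of 10 in 5 or more mice, and p was adjusted over all of them by the Benjamini-Hochberg method (threshold 0.05). The fit was tested on simulated data. Litter, sex and batch of the mice are not given in the labels, and p-values rest on the spread between these 10 libraries. The settings varied were the pseudocount (0.5 and 5), the filter (none, or a mean from 50 up), the scaling (TMM, quantile), the variance model (no trend, robust), the tool (edgeR 4.0.16 and DESeq2 1.42.0 on the recovered reads) and the mice (the run of codes as covariate, codes 53 to 66 alone, each mouse left out). Scaling to reads outside the mitochondrial genome was added after seeing the data. The genes and lists were chosen with earlier results of these data known, so no p is given for a list. Named with values were all genes past the threshold, the next 6 by p, the most abundant of each class, and called genes of the other lists. Other genes are given as examples, and Ctss, Cd68, Glb1, Igf2r and the ratios were singled out after their values were seen. Other tissues and ages were not analysed here, and 1 further gene is not reported here. Tables and figures were made in Python 3.11.15 with matplotlib 3.10.9, pandas 2.3.3 and numpy 2.4.6, and the permutation test with scipy 1.17.1.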

Additional observations from a re-analysis of the deposited data

Results flagged for a closer look

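In 7 of the 110 groups of 5 mice examined, the most extreme mouse stood apart from the other 4 by more than 0.71 of the range of its group, the critical value of Dixon's test, and chance alone gives about 1 such group in 20. Fuca1, the α-fucosidase gene, was set apart in both genotypes, with a low value of 1670.2 in replicate 2 of Rragc+/+ (the others from 1973 to 2095) and a high value of 2644 in replicate 3 of Rragc S74N/+ (the others from 1718 to 1941). Its fold change near 0 takes either sign when a mouse is left out. Lgmn, the legumain gene, had a low value of 389 in replicate 3 of Rragc+/+. Ctsc was low at 138 in replicate 3 of Rragc S74N/+, Hyal1 was low at 61.9 in replicate 5 of Rragc+/+, Ctsk was high at 20.4 in replicate 4 of Rragc+/+ and Arsa was high at 12.6 in replicate 5 of Rragc S74N/+. Ctsk and Arsa rest on few reads. None of these 6 genes passed the test between genotypes.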

How the results depend on the processing

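Lower and higher genes numbered 10 and 1, as reported, with either other pseudocount, a mean of at least 50, TMM, robust variances and edgeR, 9 and 1 without a filter, and 11 and 1 with quantile normalization. Of all genes tested, 1.97% to 2.31% were lower under these settings. The lower genes numbered 6 without the trend and 6 within library codes 53 to 66, and 5 to 9 when a mouse was left out, with 5 without replicate 4 of Rragc+/+, 6 without replicate 5 of Rragc+/+ and 6 without replicate 4 of Rragc S74N/+. Of all genes tested, 1.42% were lower without the trend, 1.35% within those codes and 1.32% to 2.02% when a mouse was left out. The higher gene, Napsa, was lost (0 genes) without the trend, within codes 53 to 66 and with scaling to reads outside the mitochondrial genome, and the count was 0 to 1 when a mouse was left out. The lower genes numbered 12 with DESeq2, 12 with the run of codes as a covariate and 11 with the scaling outside the mitochondrial genome. With DESeq2 and with the covariate, Man2b1 and Psap were the genes added. The share of all genes tested that were lower was 2.51%, 3.02% and 2.34% with these settings, against 2.02% as reported. The median log2 fold change of the 55 genes was -0.23 within codes 53 to 66 and -0.21 with scaling to reads outside the mitochondrial genome, which moved the median of all genes to -0.04. With these reads as the total, the share of the 55 genes differed by -0.0711 percentage points between genotypes, against -0.0242 as reported and -0.0027 within codes 53 to 66. Fuca1 changed sign to -0.023 with quantile normalization, -0.0020 with the covariate, -0.027 within codes 53 to 66 and -0.017 with scaling outside the mitochondrial genome, and lay between -0.077 and 0.079 when a mouse was left out. Over single genes and settings, 610 values kept their direction and side of the threshold, 62 lost and 11 gained a call and 6 changed sign, all 6 in Fuca1. The cause of these shifts was not tested. Each fit that left out a mouse also called fewer of all genes. In the list of further lysosomal genes, 2 instead of 1 fell with a mean of at least 50, TMM, quantile normalization, DESeq2, the covariate, scaling outside the mitochondrial genome and without replicate 3 of Rragc S74N/+. In the sorting list, 1 instead of 0 fell with DESeq2, the covariate and that scaling, within codes 53 to 66, and without replicate 1 or 2 of Rragc+/+. No paired analysis was possible because the labels give no replicate numbers that pair mice. Depth limits the genes under about 50 normalized counts, such as Gla, Arsa, Ctsk and Cd68, whose intervals are wide.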
